A study of Mus musculus with 12 samples.

Results

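The S100 genes encode a family of calcium-binding proteins, and 10 of them were followed in RNA sequencing of cultured mouse astrocytes. They were chosen by gene name from the 54532 genes of the table, and are S100a1, S100a4, S100a6, S100a8, S100a9, S100a10, S100a11, S100a13, S100a16 and S100b. The 12 libraries form 6 groups of 2, in 3 experiments that share no library. The Ogt cKO group and its control came from 4-month-old mice. Both carry the same genotype label, Glast-CreERT2::Ogtfloxp/Y, in which a tamoxifen-activated Cre recombinase is driven by an astrocyte promoter, and only the sample descriptions tell them apart. The AD model group came from the 5X APP Alzheimer's mice model and its control from wild-type mice, all 6 months old in the sample labels, while the series text gives another age. The Aβ-treated group and its control came from 2-month-old wild-type mice, and the treated cultures received 20 µM amyloid-beta 1-42 for a labelled 72 hours in replicate 1 and 73 hours in replicate 2. All mice were of the C57BL/6 strain, all cells were grown from cortex and hippocampus, and the protocol dissociates tissue with enzymes and names no sorting step. The labels do not say whether replicate libraries stem from different mice or dishes, so each p-value measures the spread between these libraries, which may be technical.

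S100 proteins are small, mostly dimeric proteins with a pair of calcium-binding EF-hand loops. Inside the cell they change shape on binding calcium and then dock onto other proteins, among them annexins, cytoskeletal proteins and enzymes. Some are also released and act on receptors such as RAGE (gene Ager) and Tlr4. In the brain S100b is the classical astrocyte member, while S100a8 and S100a9, which pair up as calprotectin, are best known from neutrophils and monocytes.

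Of the 10 genes, 9 lie on chromosome 3 and S100b on chromosome 10 (chr10:76253853-76261159, mm10). In a first cluster 7 sit within 185 kb, from S100a1 (chr3:90511034-90514392, minus strand) to S100a9 (chr3:90692632-90695721, minus strand). S100a11 (chr3:93520488-93526287) and S100a10 (chr3:93555080-93564643) follow 2.82 Mb further on and are 28.8 kb apart. RefSeq promoter windows on GRCm38.p6, which run from 250 bases before to 50 bases after a start site, were matched for 9 of the 10 genes and S100a10 had none. Each window was searched on both strands for AP-1 (TGANTCA), C/EBP (TTGCNNAA), STAT (TTCNNNGAA), a TATA box (TATAAA) and the NF-kB consensus. Among all 32851 windows 7.81% held the AP-1 letters, 10.8% those of C/EBP, 8.30% those of STAT, 13.6% a TATA box and 8.46% the NF-kB letters. No 2 matches in the members' windows overlapped, and a match describes letters only.

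These 4 windows are printed as examples. Of the windows not printed, a window of S100a16 held AP-1 letters at -192 and that of S100a4 a TATA box at -31. The windows of S100a1, S100a6, S100a13 and S100b held no match. The S100a11 window (chr3:93520246-93520545, plus strand) holds AP-1 letters at 2 places, in capitals, at offsets of -136 and -38 bases from the start site. The S100a13 window (chr3:90514185-90514484, plus strand) also covers the start of S100a1, which runs the opposite way, and the capitals mark the 42 bases between the 2 gene models. The S100a8 window (chr3:90668821-90669120, plus strand) holds a TATA box, in capitals, at an offset of -30 bases. The S100a9 window (chr3:90695672-90695971, minus strand) holds C/EBP letters at -236 and the TATA box letters at 0, both in capitals.
S100a11: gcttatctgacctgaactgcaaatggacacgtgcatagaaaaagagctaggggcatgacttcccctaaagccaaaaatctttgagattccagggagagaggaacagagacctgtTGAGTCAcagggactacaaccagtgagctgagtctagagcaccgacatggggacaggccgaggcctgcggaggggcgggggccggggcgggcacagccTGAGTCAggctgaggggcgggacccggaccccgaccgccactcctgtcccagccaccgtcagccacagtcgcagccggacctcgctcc
S100a13: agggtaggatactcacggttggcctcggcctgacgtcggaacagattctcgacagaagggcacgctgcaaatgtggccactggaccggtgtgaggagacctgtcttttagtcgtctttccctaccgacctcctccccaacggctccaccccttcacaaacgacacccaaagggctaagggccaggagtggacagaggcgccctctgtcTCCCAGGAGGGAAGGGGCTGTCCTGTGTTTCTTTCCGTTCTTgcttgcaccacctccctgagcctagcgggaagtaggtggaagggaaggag
S100a8: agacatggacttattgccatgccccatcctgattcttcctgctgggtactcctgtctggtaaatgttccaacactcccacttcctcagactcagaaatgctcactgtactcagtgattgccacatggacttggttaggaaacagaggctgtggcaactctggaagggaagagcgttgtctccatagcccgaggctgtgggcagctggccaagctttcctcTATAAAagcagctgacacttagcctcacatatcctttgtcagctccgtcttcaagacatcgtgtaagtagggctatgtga
S100a9: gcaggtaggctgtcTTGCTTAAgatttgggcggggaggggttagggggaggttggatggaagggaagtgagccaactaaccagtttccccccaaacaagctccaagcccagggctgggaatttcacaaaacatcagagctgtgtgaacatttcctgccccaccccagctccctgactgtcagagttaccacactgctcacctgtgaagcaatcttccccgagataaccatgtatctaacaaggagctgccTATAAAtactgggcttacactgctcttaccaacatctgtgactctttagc

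Values are the authors' FPKM, in which fragments are divided by gene length and by library size. Comparisons of level between genes thus rest on the gene lengths given, such as 1367 bases for S100a6 and 511 for S100a11. The library size behind the FPKM, also used for ratios per library size, was not the total of reads on genes. That total was 1.10 and 1.07 times this size in the Ogt cKO and 0.921 and 0.907 times in its control. Each library held 16418852 to 18705309 reads on genes, and for a transcript 1 kb long 3 reads were worth 0.145 to 0.191 FPKM, counting error alone. Tests are limma fits of log2(FPKM + 1) over the 14014 genes that reached 1 FPKM in 2 or more libraries, with Benjamini-Hochberg adjustment over all of them, and a gene was called at an adjusted p under 0.05. That filter kept 9 of the 10 members. S100a4 and S100a8 passed it through the groups in which they were high, and S100a9 did not pass. The AD libraries stood apart from the rest in their spread, with a correlation of replicates across genes of 0.944 in the AD model and 0.948 in the AD control. Ogt, the deleted gene, was at 11.04 and 12.03 FPKM in the Ogt cKO libraries, against 20.8 and 24.7 in their control (log2 change -0.92, limma adjusted p = 0.038). It was at 18.3 and 19.9 in the AD model and 10.03 and 22.7 in its control, and at 12.4 and 10.6 in the Aβ-treated group and 7.85 and 10.4 in its control.

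Markers of other cells were present beside those of astrocytes. The astrocyte filament gene Gfap was at 48.03 and 55.3 FPKM in the Ogt cKO and 267 and 298 in its control, at 125 and 155 in the AD model and 222 and 297 in its control, and at 77.6 and 29.1 in the Aβ-treated group and 62.3 and 60.1 in its control. The summed FPKM of 12 astrocyte markers was 92.9 to 105 in the Ogt cKO against 528 to 603 in its control, 211 to 241 in the AD model against 427 to 639 in its control, and 62.5 to 130 in the Aβ-treated group against 104 to 112 in its control. In bulk RNA, fewer cells of a type and less RNA per cell cannot be told apart.

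**Figure D1:**
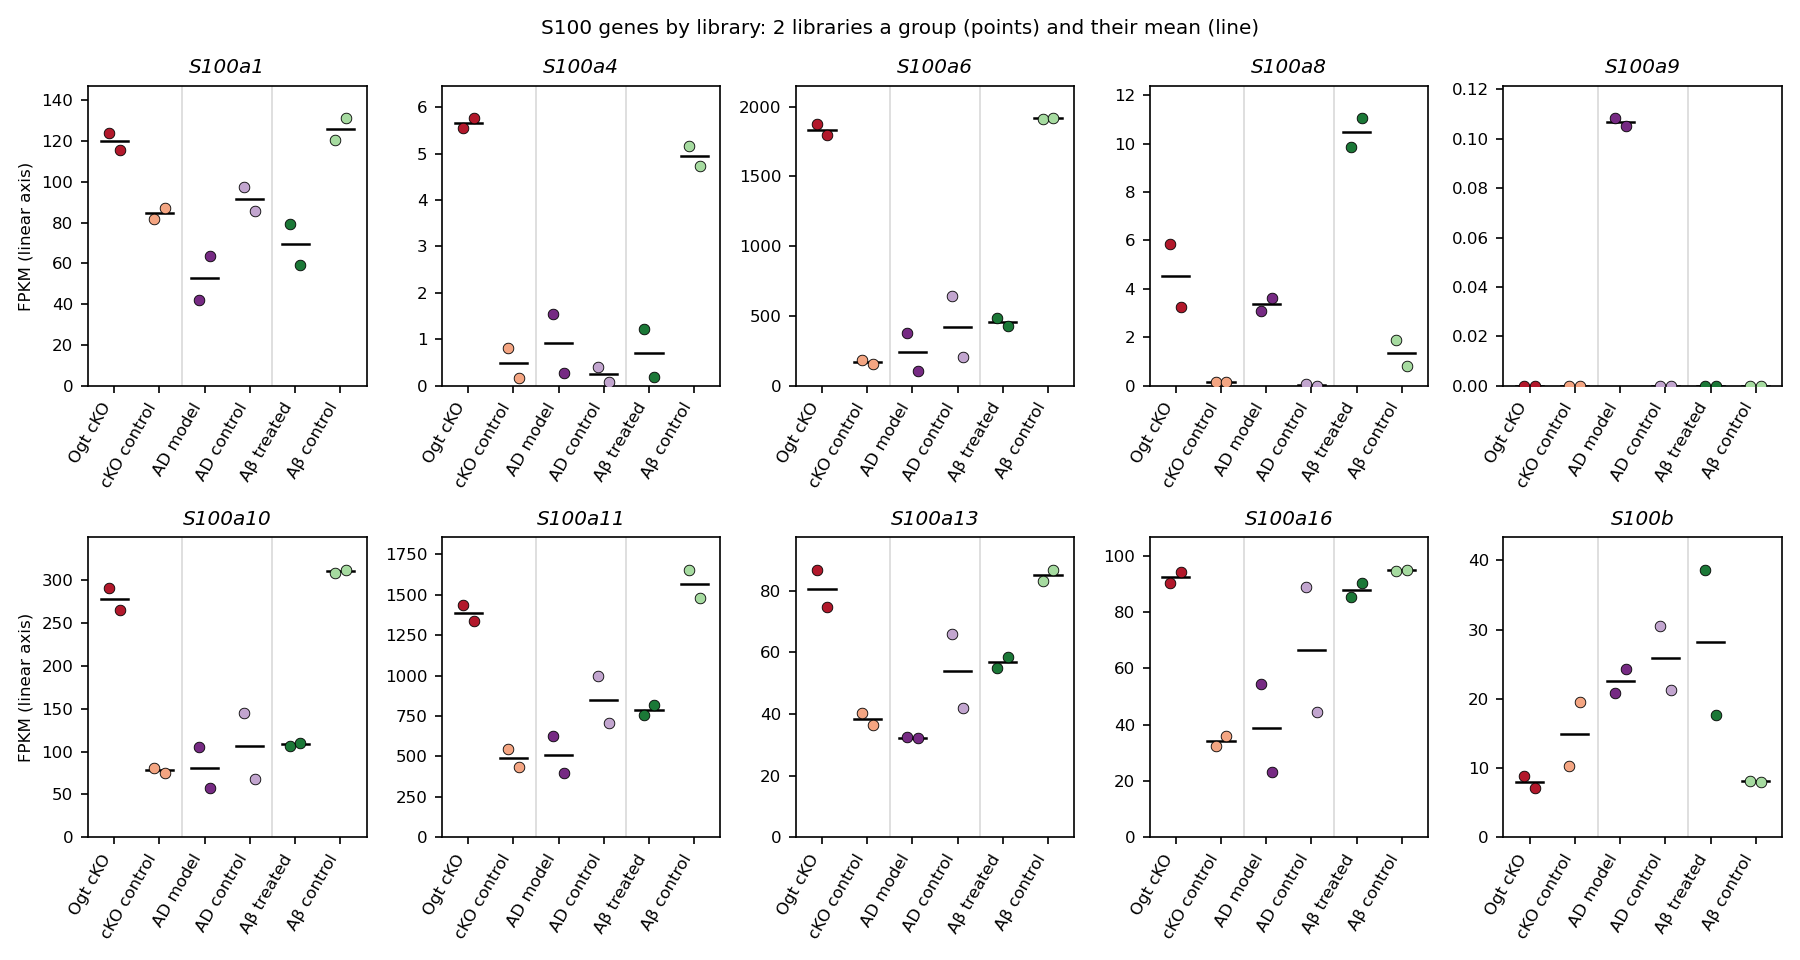
FPKM of the 10 S100 genes (linear axes, a scale of its own for each gene) in the 6 groups. Points are the 2 libraries of a group and lines their mean. S100a6, S100a10 and S100a11 were high in the Ogt cKO and in the Aβ control, S100a8 was higher in the Ogt cKO, AD model and Aβ-treated libraries than in their controls, and S100a9 was at 0 outside the AD model.

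Levels in the family ran from S100a9 at 0 to 0.108 FPKM to S100a6 at up to 1917 FPKM. S100a11, S100a6 and S100a10 made up 78.7% to 92.5% of the summed FPKM of the 10 genes in every library. That sum was 3922 and 3696 in the Ogt cKO against 978 and 844 in its control. It was 1262 and 706 in the AD model against 2066 and 1170 in its control, and 1619 and 1593 in the Aβ-treated group against 4190 and 4033 in its control. The make-up of the pool differed as well as its size. S100a6 had 1.31 and 1.34 times the FPKM of S100a11 in the Ogt cKO, against 0.335 and 0.358 times in its control. In the Aβ-treated group the ratio was 0.643 and 0.526, against 1.15 and 1.30 in its control. In the AD experiment it followed the replicate number rather than the group, at 0.602 and 0.268 in the AD model and 0.645 and 0.289 in its control.

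**Figure D2:**
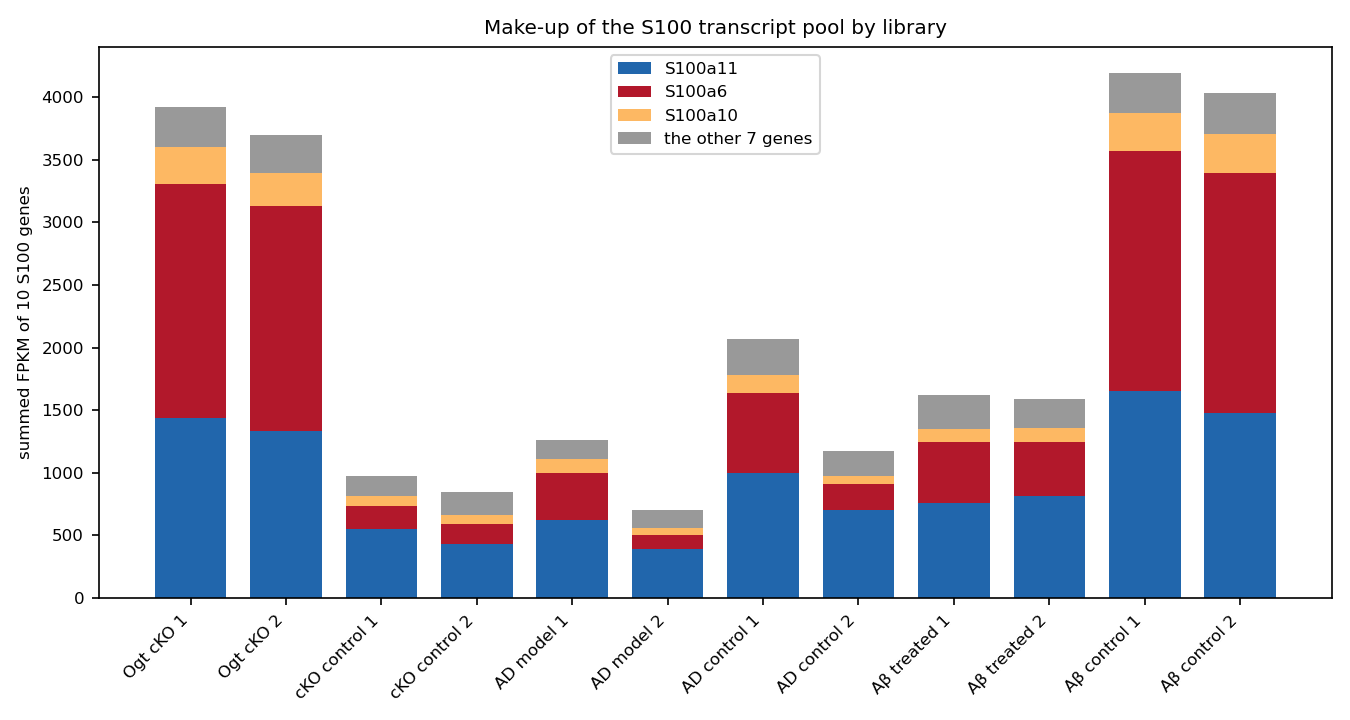
Summed FPKM of the 10 S100 genes in each of the 12 libraries (linear axis from 0), split into S100a11, S100a6, S100a10 and the other 7 genes. The Ogt cKO and Aβ control libraries stand at 3696 to 4190, and the other 8 libraries at 706 to 2066.

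In the Ogt cKO, 7 of the 9 tested members rose and 0 fell, in a comparison where 42.3% of all tested genes were called, 22.6% higher and 19.8% lower. The members that rose were S100a4, S100a6, S100a8, S100a10, S100a11, S100a13 and S100a16. The median log2 change of the 9 was 1.503, beside -0.0024 for all genes tested. S100a1 and S100b did not pass. S100a4 and S100a8 met the filter of 1 FPKM only through groups in which they were high, the Ogt cKO among them. A fall from their low control could hardly be seen, so the count and the median are partly set by the filter.

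S100a6, or calcyclin, is an intracellular member tied to proliferating cells and the cytoskeleton. It was at 1875 and 1795 FPKM in the Ogt cKO libraries, against 183 and 155 in the cKO control libraries. Both Ogt cKO libraries lay far above both controls, a ratio of means of 10.8 (log2 change 3.44 ± 0.60 SE, limma adjusted p = 0.0040). S100a11, which binds annexin A1, was the most abundant member in the control. It was at 1434 and 1335 FPKM in the Ogt cKO and 548 and 434 in the cKO control (log2 change 1.503 ± 0.26, limma adjusted p = 0.0040). S100a10, which has lost the ability to bind calcium and joins annexin A2 at the membrane, was at 291 and 265 FPKM in the Ogt cKO and 81.1 and 75.1 in the cKO control (log2 change 1.82 ± 0.35, limma adjusted p = 0.0053). The groups did not overlap for any of these 3 genes.

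S100a13, which helps export growth factors that lack a signal peptide, was at 86.6 and 74.8 FPKM in the Ogt cKO, against 40.4 and 36.5 in its control (log2 change 1.05 ± 0.19, limma adjusted p = 0.0047). S100a16, a broadly expressed member, was at 90.5 and 94.4 FPKM in the Ogt cKO and 32.6 and 36.0 in its control (log2 change 1.41 ± 0.38, limma adjusted p = 0.019). It narrowly missed the threshold with no filter on low values (limma adjusted p = 0.0502). The S100a16 call was lost without any 1 of the 4 libraries (limma adjusted p = 0.079 to 0.082, log2 change 1.34 to 1.48). S100a1, which starts beside S100a13 and points away from it, was at 124 and 116 FPKM in the Ogt cKO and 81.7 and 87.3 in its control. Its groups did not overlap, but the difference of 0.50 ± 0.21 on the log2 scale did not pass (limma adjusted p = 0.080). It passed with the 4 cKO libraries alone (limma adjusted p = 0.0056). The difference was smaller and did not pass with rescaling to the total of reads (log2 change 0.26, limma adjusted p = 0.32) or quantile normalization (0.085, 0.74).

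S100a4 and S100a8 were scarce. S100a4, linked to cell motility and often used as a fibroblast marker, was at 5.55 and 5.76 FPKM in the Ogt cKO (51 and 54 reads) and 0.818 and 0.166 in its control (9 and 2 reads). Its rise passed the test (log2 change 2.19 ± 0.38, limma adjusted p = 0.0038). S100a8 was at 5.86 and 3.23 FPKM in the Ogt cKO (64 and 36 reads) and 0.153 and 0.140 in its control (2 reads in each). That is 31.1 times the control per library size, with a counting interval (95%, exact) of 11.8 to 116, and a fitted log2 change of 2.23 ± 0.26 (limma adjusted p = 0.0011). S100b went the other way in its values, at 8.91 and 7.14 FPKM in the Ogt cKO and 10.2 and 19.5 in its control, and did not pass (log2 change -0.76 ± 0.37, limma adjusted p = 0.13).

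Markers of other cells moved with these genes. The 8 pericyte and smooth muscle markers summed to 3986 to 4029 FPKM in the Ogt cKO against 499 to 1000.0 in its control. The mesothelial list was at 154 to 168 against 0.516 to 1.96, most of it Msln and Krt19. Of its 3 defining markers Msln was at 83.9 and 76.6 FPKM in the Ogt cKO against 0.427 and 0.115 in its control, while Upk3b and Lrrn4 stayed under 0.1 FPKM in all 12 libraries. The keratinocyte and cornified envelope list was at 1177 to 1183 against 15.1 to 38.2, most of it Crct1. Of its 3 defining markers Ivl was at 14.5 and 14.3 FPKM in the Ogt cKO and at 0 in both control libraries, while the keratins Krt5 and Krt14 stayed under 0.1 FPKM in all 12 libraries, and Lor, Lce1h and Sprr1a were called higher in the Ogt cKO. The fibroblast sum was 1189 to 1216 in the Ogt cKO against 890 to 1027 in its control, and the endothelial sum 250 to 259 against 41.8 to 51.3. The part of any of these cells in the S100 changes was not tested.

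**Figure D3:**
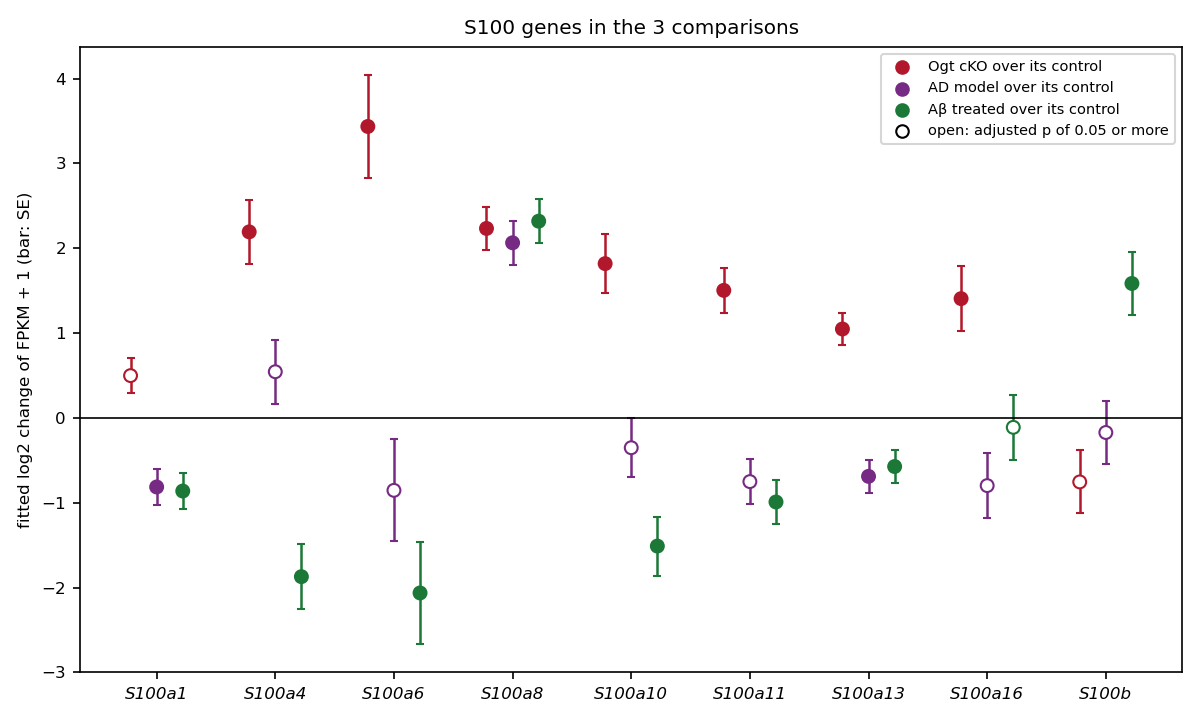
Fitted log2 change of FPKM + 1 for the 9 tested S100 genes in each comparison, with standard errors. Filled points passed an adjusted p of 0.05. Most S100a genes were above 0 in the Ogt cKO and below 0 after Aβ, while S100a8 was above 0 in all 3 comparisons, at 2.06 to 2.32. The added 1 shrinks the changes of scarce genes such as S100a8.

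In the Aβ-treated cultures, 6 of the 9 tested members fell and 2 rose, in a comparison where 35.9% of all tested genes were called, 15.1% lower and 20.8% higher. S100a1, S100a4, S100a6, S100a10, S100a11 and S100a13 fell, and S100a8 and S100b rose. The median log2 change of the 9 was -0.86, beside -0.04 for all genes. S100a4 and S100a8 met the filter of 1 FPKM only through groups in which they were high. Among those were the Aβ control for S100a4 and the Aβ-treated group for S100a8.

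S100a6 was at 486 and 429 FPKM in the Aβ-treated libraries, against 1912 and 1917 in the Aβ control libraries (log2 change -2.06 ± 0.60, limma adjusted p = 0.026). S100a10 was at 106 and 110 FPKM in the treated group and 309 and 312 in its control (log2 change -1.51 ± 0.35, limma adjusted p = 0.0097). S100a11 was at 757 and 816 FPKM in the treated group and 1656 and 1477 in its control (log2 change -0.99 ± 0.26, limma adjusted p = 0.018). For all 3 genes the treated libraries lay below both controls. With no filter on low values the calls of S100a6 (limma adjusted p = 0.071) and S100a11 (0.075) were lost. Without any 1 of the 4 libraries S100a6 lost its call (limma adjusted p = 0.090 to 0.11), as did S100a11 (0.053 to 0.11). S100a10 lost it without Aβ-treated replicate 1 or Aβ control replicate 1 (0.055 in both).

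S100a13 was at 55.1 and 58.7 FPKM in the Aβ-treated group and 83.3 and 86.9 in its control (log2 change -0.57 ± 0.19, limma adjusted p = 0.045). This result stayed the same in 13 of 24 alternative fits. Its call was lost with no filter on low values (limma adjusted p = 0.083) and with quantile normalization (0.069). S100a1 was at 79.5 and 59.5 FPKM in the treated group and 121 and 131 in its control (log2 change -0.86 ± 0.21, limma adjusted p = 0.012). The S100a13 call was lost without any 1 of the 4 libraries (limma adjusted p = 0.11 to 0.18), and that of S100a1 without Aβ-treated replicate 2 (0.086) and Aβ control replicates 1 (0.050) and 2 (0.060). S100a4 was at 1.21 and 0.192 FPKM in the treated group (12 and 2 reads) and 5.17 and 4.73 in its control (51 and 48 reads), with a log2 change of -1.87 ± 0.38 (limma adjusted p = 0.0055). S100a16 was at 85.4 and 90.3 FPKM in the treated group and 94.8 and 95.1 in its control. It did not pass (log2 change -0.11 ± 0.38, limma adjusted p = 0.84), although it lies between S100a13 and S100a4 on the chromosome, which both fell.

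S100a8 and S100b rose after Aβ. S100a8 was at 9.87 and 11.1 FPKM in the treated group (116 and 137 reads) and 1.87 and 0.830 in its control (22 and 10 reads). The ratio per library size was 7.79, with a counting interval (95%, exact) of 5.38 to 11.6. Its log2 change was 2.32 ± 0.26 (limma adjusted p = 2.9e-04). S100b was at 38.7 and 17.7 FPKM in the treated group and 8.13 and 8.03 in its control (log2 change 1.58 ± 0.37, limma adjusted p = 0.010). Both treated libraries were above both controls, and the treated libraries differed 2.19-fold from each other. S100b lost its call without Aβ-treated replicate 1 (log2 change 1.04, limma adjusted p = 0.074) or Aβ control replicate 1 (1.59, 0.059). The reads of Dip2a, which overlaps S100b on the opposite strand, could not be separated from it by strand here. Dip2a itself was at 7.95 and 8.25 FPKM in the treated group and 7.39 and 7.29 in its control.

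S100b is also made by oligodendrocyte lineage cells, and those markers moved too. Their sum of 11 genes was 305 and 175 FPKM in the Aβ-treated replicates 1 and 2, against 77.7 and 59.5 in the control. The 12 astrocyte markers summed to 130 and 62.5 in the same treated replicates. In the treated group the replicate with more S100b thus had the higher sum of both lists. In the cKO control the replicates had 10.2 and 19.5 FPKM of S100b beside oligodendrocyte lineage sums of 192 and 379 and astrocyte sums of 528 and 603. The oligodendrocyte lineage sum was 362 to 421 in the AD model against 252 to 295 in its control. S100b was at 20.9 and 24.3 FPKM in the AD model and 30.5 and 21.3 in its control. The sum of the pericyte and smooth muscle list was 416 to 480 in the treated group against 3556 to 4053 in its control. The mesothelial sum was 14.8 to 18.2 against 131 to 199, the keratinocyte and cornified envelope sum 232 to 277 against 1232 to 1644, and the fibroblast sum 285 to 483 against 782 to 1005. The endothelial sum went the other way, at 627 to 911 in the treated group against 248 to 299 in its control, with 5 of its 7 tested genes called higher. The part of these cells in the S100 values was not tested.

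In the AD model, 2 of the 9 tested members fell and 1 rose, in a comparison where 17.1% of all tested genes were called, 7.27% lower and 9.80% higher. S100a4 and S100a8 were under 1 FPKM in the AD control, so a fall could hardly be seen for them. S100a8 rose, at 3.10 and 3.64 FPKM in the AD model (38 and 46 reads) and 0.0872 and 0 in its control (1 and 0 reads). The ratio per library size was 84.7, with a counting interval (95%, exact) of 14.8 to 3383 because the control held 1 read, and the log2 change was 2.06 ± 0.26 (limma adjusted p = 9.4e-04). S100a1 was at 41.9 and 63.6 FPKM in the AD model and 97.6 and 85.9 in its control (log2 change -0.81 ± 0.21, limma adjusted p = 0.027). S100a13 was at 32.4 and 32.2 FPKM in the AD model and 66.1 and 42.0 in its control (log2 change -0.69 ± 0.19, limma adjusted p = 0.039). With the 4 AD libraries alone neither S100a1 (limma adjusted p = 0.27) nor S100a13 (0.34) passed. Nor did S100a1 (0.060) or S100a13 (0.077) pass with no filter on low values. S100a1 also lost its call without AD model replicate 1 (0.11), AD control replicate 1 (0.095) or Ogt cKO replicate 2 (0.050). S100a13 lost its call in 11 of the 12 fits that left out 1 library, and kept it without AD control replicate 2 (0.0034).

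The other 6 tested members did not pass in the AD model, and several of them differed by replicate number as well as by group. S100a6 was at 377 and 106 FPKM in the AD model and 642 and 204 in its control. S100a10 was at 105 and 57.3 against 145 and 68.1, and S100a16 at 54.4 and 23.3 against 88.8 and 44.4. The groups overlapped for these 3 genes, with replicate 1 above replicate 2 in both groups, and at each replicate number the AD model was below its control. S100a11 was at 625 and 395 FPKM in the AD model and 995 and 705 in its control, without overlap (log2 change -0.75 ± 0.26, limma adjusted p = 0.088). Without AD model replicate 1 it passed (log2 change -1.08, limma adjusted p = 0.029), as it did without AD control replicate 2 (limma adjusted p = 0.048). S100a16 passed without AD model replicate 1 (-1.39, 0.023). S100b was at 20.9 and 24.3 FPKM in the AD model and 30.5 and 21.3 in its control, and S100a4 at 1.55 and 0.282 against 0.415 and 0.0872. The pericyte and smooth muscle sum followed the same replicates, at 749 and 207 FPKM in AD model replicates 1 and 2 and 3789 and 1699 in AD control replicates 1 and 2. It was not alone in this. The fibroblast, endothelial, mesothelial, monocyte, and keratinocyte and cornified envelope sums were also higher in replicate 1 of both AD groups. Sums of astrocyte markers and of microglia and macrophage markers were higher in replicate 2 of both. Those of the oligodendrocyte lineage and neutrophil lists differed in direction between the AD groups. The part of any of these cells was not tested.

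S100a8 was present without its partner S100a9. S100a9 had 1 read in each AD model library (0.108 and 0.105 FPKM) and 0 reads in the other 10 libraries, where 0 reads allow up to 0.279 to 0.365 FPKM. Over the 2 libraries of a group S100a8 had 253 reads in the Aβ-treated group and 100 in the Ogt cKO, with S100a9 at 0. Measured per length against the 3 reads per group that a count of 0 allows, S100a8 was at least 63.4-fold higher than S100a9 in the Aβ-treated group and at least 25.1-fold higher in the Ogt cKO. In the AD model 84 reads of S100a8 stood beside 2 of S100a9. Markers of the cells best known for S100a8 were mixed. Of the neutrophil list, Ly6g stayed at or under 0.0601 FPKM, Mpo at or under 0.0371 and Elane at or under 0.180 in all 12 libraries. Mmp8, the neutrophil collagenase, moved with S100a8, at 21.8 and 12.8 FPKM in the AD model and 0.699 and 0.0630 in its control, and at 21.2 and 24.6 in the Aβ-treated group and 0.341 and 0.0237 in its control. It was also called higher in the Ogt cKO, at 1.44 and 0.643 against 0 and 0.0600. Csf3r was called higher in the AD model and after Aβ, and Mmp9 in the Ogt cKO and after Aβ. Of the monocyte list, Ccr2 reached 0.236 FPKM and Ly6c2 0.0232, while Plac8 reached 14.8. Plac8 was called higher in the AD model, at 8.91 ± 8.35 FPKM against 0.580 ± 0.685 in its control (SD, n = 2 each, limma adjusted p = 0.039), and after Aβ, at 9.10 ± 5.38 against 0.831 ± 0.716 (limma adjusted p = 0.022). The monocyte list summed to 1.36 to 3.56 FPKM in the Ogt cKO against 0.196 to 0.456 in its control, 3.89 to 15.9 in the AD model against 0.155 to 1.25, and 6.43 to 13.6 after Aβ against 0.572 to 1.51, and its part was not tested. Of the 15 genes on the neutrophil list 11 never reached 1 FPKM. Its sum of 294 to 558 FPKM in the AD model against 12.4 to 20.2 in its control, 412 to 446 in the Aβ-treated group against 15.3 to 19.5, and 24.8 to 34.9 in the Ogt cKO against 5.47 to 6.35 came mostly from Lcn2, which reactive astrocytes make as well, and its part in the S100a8 values was not tested. Lcn2 was at 397 ± 195 FPKM in the AD model and 13.5 ± 3.19 in its control (SD, n = 2).

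The effects of the 3 experiments were set against each other as contrasts of the same fit. Against the Ogt cKO, the Aβ effect differed for 8 of the 9 members (52.3% of all genes differed, 26.6% higher and 25.7% lower), lower for S100a1, S100a4, S100a6, S100a10, S100a11, S100a13 and S100a16 and higher for S100b. The AD effect differed from that of the Ogt cKO for 6 of the 9 (25.6% of all genes, 13.7% lower), all lower, with S100a4 (limma adjusted p = 0.051), S100a8 and S100b not called. Without Ogt cKO replicate 1 only S100a6, S100a11 and S100a13 were still called in it. The S100a16 difference between Aβ and the Ogt cKO (limma adjusted p = 0.041) was lost without any 1 of the 8 libraries of those experiments (0.080 to 0.10), with no filter on low values (0.095), with rescaling to the total of reads (0.072) and with quantile normalization (0.12). Between AD and Aβ 1 of the 9 differed (6.14% of all genes, 1.52% higher and 4.62% lower), S100a4, with the higher value in AD, and this call was lost with a pseudocount of 0.1 or 0.5 and in 8 of the 12 fits without 1 library. For S100a8 none of the 3 differences passed (limma adjusted p = 0.71 to 0.86), with fitted log2 changes of 2.23, 2.06 and 2.32 in the Ogt cKO, AD and Aβ comparisons. That does not show that they were alike, since the differences had standard errors of 0.36. The added 1 also shrinks fitted changes where the control is near 0. The S100a8 ratios per library size were 31.1, 84.7 and 7.79 in the same order. With voom on recovered reads the log2 changes were 4.59, 5.65 and 3.03.

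Across experiments, the Ogt cKO and the Aβ control had similar levels of most members. S100a6 averaged 1835 ± 57.1 FPKM in the Ogt cKO and 1914 ± 3.72 in the Aβ control, S100a10 278 ± 18.5 and 310 ± 2.59, and S100a16 92.4 ± 2.79 and 94.97 ± 0.230 (SD, n = 2 each). These were the 2 highest groups for S100a1, S100a4, S100a6, S100a10, S100a11, S100a13 and S100a16, and the 2 lowest for S100b. At the low end, S100a6 averaged 169 ± 20.0 in the cKO control, 241 ± 192 in the AD model and 423 ± 310 in the AD control, and the AD libraries overlapped each other. The control groups thus differed among themselves by up to 11.3-fold for S100a6. Age and experiment differ between all 3 controls, and the cKO control also carries another genotype label than the wild-type AD and Aβ controls, so these cannot be told apart.

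Profiles across the 12 libraries were compared by the root mean square distance of log2(FPKM + 1), each gene centred on its own mean. Among the members the closest pair was S100a11 and S100a13 (0.24), followed by S100a10 and S100a11 (0.30) and the neighbours S100a1 and S100a13 (0.32). The most distant pair was S100a6 and S100b (2.03). The nearest genes were sought among the tested genes, leaving out predicted ones with Gm numbers or Rik names. Nearest to S100a10 was Anxa2 (0.20), the annexin that S100a10 joins, closely followed by Nradd (0.21) and Gsn (0.22). Anxa2 was at 482 and 438 FPKM in the Ogt cKO and 158 and 147 in its control, at 189 and 114 in the AD model and 251 and 158 in its control, and at 227 and 260 in the Aβ-treated group and 516 and 465 in its control. S100a6 was nearest to Anxa8 (0.34), Pcp4l1 (0.34) and Lgals1 (0.38), S100a11 to Actg1 (0.13), and S100a8 to Ier3 (0.39), Cxcl16 (0.47) and Ccl8 (0.50). S100b was nearest to Wscd1 (0.27).

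Genes next to the members on the chromosome were described to see whether the whole region moved. Within 1 Mb of the chromosome 3 members, 42 tested genes were not S100 genes. In the Ogt cKO 42.9% of them were called, beside 42.3% of all genes. After Aβ it was 35.7% beside 35.9%, and in the AD model 4.76% beside 17.1%. Around S100a1 to S100a9, 3 of 26 such genes rose and 5 fell in the Ogt cKO, 2 rose and 0 fell in the AD model, and 6 rose and 1 fell after Aβ. Around S100a11 and S100a10, a region of cornified envelope genes, 8 of 16 rose and 2 fell in the Ogt cKO, 0 were called in the AD model, and 0 rose and 8 fell after Aβ. Among all genes 22.6% rose and 19.8% fell in the Ogt cKO, 9.80% and 7.27% in the AD model, and 20.8% and 15.1% after Aβ. Of the cornified envelope genes, Ivl was at 0 FPKM in both cKO control libraries and Lce1h at 0.0752 and 0. Both met the filter of 1 FPKM only through other groups, so these counts are partly set by the filter. The split into these 2 blocks was made after the values were seen.

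**Figure D4:**
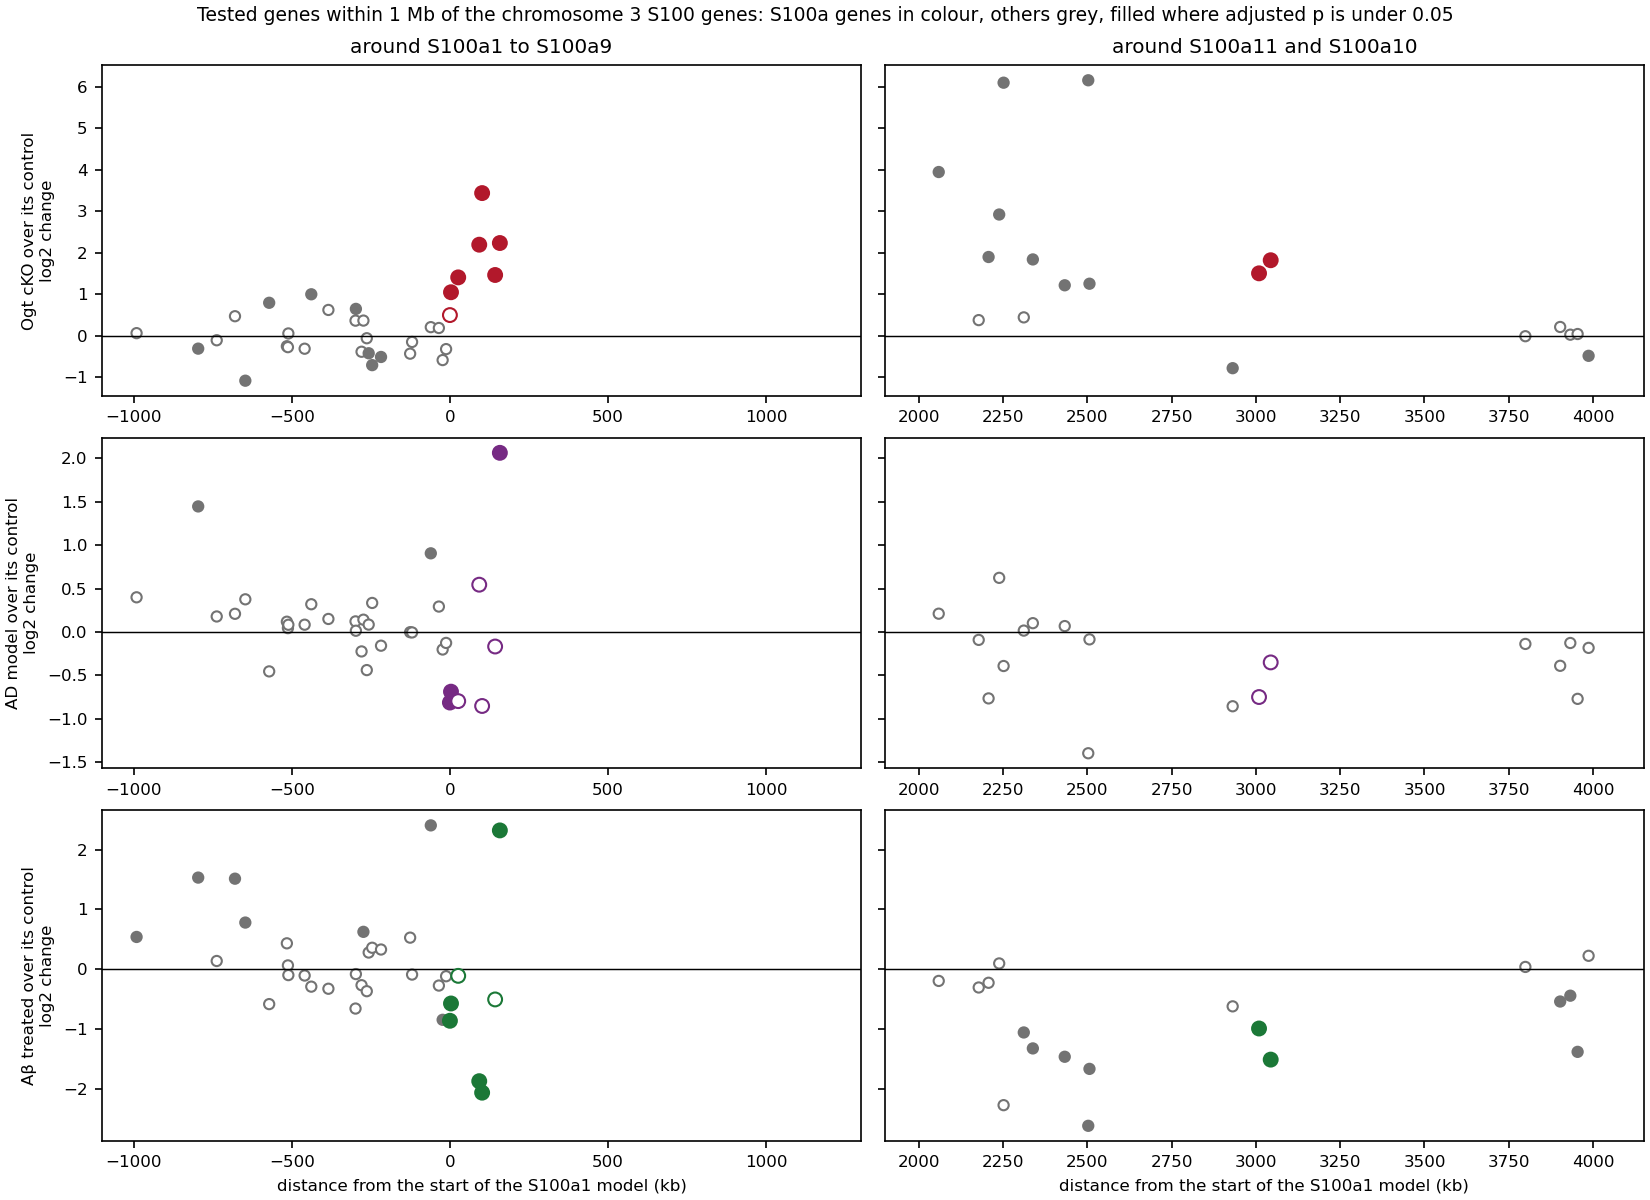
Fitted log2 change of tested genes within 1 Mb of the chromosome 3 S100 genes, by distance from the start of the S100a1 model (kb), for the 3 comparisons. S100a genes, S100a7a included, are in colour, other genes in grey, and filled points passed an adjusted p of 0.05. The S100a genes at 0 to 185 kb lie above most of their grey neighbours in the Ogt cKO.

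The rest of the S100 system was described from lists. Of the other S100 genes S100a7a alone passed the filter, and it rose in the Ogt cKO, at 3.19 and 3.08 FPKM against 0.540 and 0.458 in its control (log2 change 1.46 ± 0.29, limma adjusted p = 0.0061). S100a7a met the filter of 1 FPKM only through the Ogt cKO, Aβ-treated and Aβ control groups. A fall from its low cKO control could thus hardly be seen. Of 10 tested receptor genes 1 rose and 4 fell in the Ogt cKO, 3 rose and 1 fell in the AD model, and 3 rose and 1 fell after Aβ. Among all genes tested 42.3%, 17.1% and 35.9% were called in these 3 comparisons, so the shares of receptors called in the Ogt cKO and after Aβ lay near those of all genes. Tlr4, the endotoxin receptor that S100a8 also engages, averaged 1.09 FPKM in the Ogt cKO and 2.25 in its control, 5.41 in the AD model and 2.11 in its control, and 6.50 in the Aβ-treated group and 1.13 in its control. It was called in all 3 comparisons, lower in the Ogt cKO (log2 change -0.64) and higher in the AD model (1.04) and after Aβ (1.84). Cd36, a scavenger receptor, averaged 60.5 FPKM in the AD model against 2.24 in its control, and 63.8 after Aβ against 2.20. Of 12 genes of the signalling behind these receptors 3 rose and 2 fell in the Ogt cKO, 5 rose and 0 fell in the AD model, and 6 rose and 1 fell after Aβ. The share called in the Ogt cKO was close to the 42.3% of all genes, and in the AD model and after Aβ it stood beside 17.1% and 35.9%. Nfkbia, the inhibitor that NF-kB induces, averaged 167 FPKM in the Ogt cKO against 21.95 in its control, 165 in the AD model against 22.9, and 143 after Aβ against 32.2. Markers of microglia and macrophages, which express these receptors, summed to 3027 to 4027 FPKM in the Ogt cKO against 7219 to 9165 in its control, 3323 to 5622 in the AD model against 1089 to 1649, and 4587 to 6064 after Aβ against 2271 to 3776, and their part was not tested.

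Of 25 tested binding partners of S100 proteins 10 rose and 5 fell in the Ogt cKO, 1 rose and 1 fell in the AD model, and 3 rose and 5 fell after Aβ. These counts stand beside 42.3%, 17.1% and 35.9% of all genes called. The share of partners called was above that of all genes in the Ogt cKO, below it in the AD model and near it after Aβ. Anxa1, the partner of S100a11, averaged 443 ± 1.51 FPKM in the Ogt cKO and 91.2 ± 23.2 in its control, and 107 ± 1.71 after Aβ and 384 ± 36.7 in its control (SD, n = 2 each). Anxa1 and Anxa2 were chosen after their values were seen, and both were called higher in the Ogt cKO (limma adjusted p = 0.0061 and 0.0037) and lower after Aβ (0.014 and 0.019). Of 29 tested genes for other EF-hand proteins 13 rose and 2 fell in the Ogt cKO, 4 rose and 10 fell in the AD model, and 4 rose and 12 fell after Aβ. Among all genes 22.6% rose and 19.8% fell in the Ogt cKO, 9.80% and 7.27% in the AD model, and 20.8% and 15.1% after Aβ. The median log2 change of the EF-hand genes was 0.59 in the Ogt cKO, -0.30 in the AD model and -0.45 after Aβ, beside -0.0024, -0.024 and -0.037 for all genes. Plcd1, a calcium-activated phospholipase, averaged 23.4 FPKM in the Ogt cKO and 10.4 in its control, 8.35 in the AD model and 15.1 in its control, and 10.5 after Aβ and 23.1 in its control, and it was called in each.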

How the data were processed

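RNA of cultured mouse astrocytes was sequenced in 12 libraries, 2 in each of 6 groups taken from the sample descriptions. The authors deposited FPKM per gene with gene lengths. The build is mm10, per the submitters' processing notes. Aligner, counter, annotation, strand setting and handling of multi-mapped reads: not given in the sources used here. FPKM times length came out as whole reads (100% of values within 0.1 of a read), 16418852 to 18705309 per library, and intervals and limits from reads cover counting error only.

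The 14014 genes that reached 1 FPKM in 2 or more libraries were tested on log2(FPKM + 1). The test was limma 3.58.1 (R 4.3.3), two-sided, with a trend of variance on level. All 12 libraries entered a single fit of group means (6 residual degrees of freedom), and p-values were adjusted by Benjamini and Hochberg at 0.05. The added 1 makes fitted changes of scarce genes smaller than their ratio of FPKM. All 10 members were named; of other lists up to 4 called genes by smallest p per comparison, from which a few were printed, and the 3 nearest profiles per member, from which a few were printed. Members and lists were chosen with earlier results of these data known. Alternatives were pseudocounts, filters, scalings, voom, replicate blocks, single experiments and leaving out libraries. Promoter sequences are RefSeq's on GRCm38.p6. Plots used matplotlib 3.10.9.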

Additional observations from a re-analysis of the deposited data

Results flagged for a closer look

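Differences between the effects of 2 experiments, each measured against its own control, were called for these members by a contrast of the limma fit. Between the AD model and the Ogt cKO the difference in log2 change was -1.31 for S100a1, -4.29 for S100a6, -2.17 for S100a10, -2.25 for S100a11, -1.74 for S100a13 and -2.20 for S100a16 (limma adjusted p = 0.0036 to 0.020). Between Aβ and the Ogt cKO it was -1.36 for S100a1, -4.07 for S100a4, -5.50 for S100a6, -3.33 for S100a10, -2.49 for S100a11, -1.62 for S100a13, -1.52 for S100a16 and 2.34 for S100b (limma adjusted p = 6.1e-04 to 0.041). Between the AD model and Aβ it was 2.42 for S100a4 (limma adjusted p = 0.034).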

How the results depend on the processing

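Directions and calls of single members stayed as reported in 1092 of 1224 recomputed values, 85 calls were lost, 20 gained and 27 values changed sign, none of them past the threshold. The count of members called in the Ogt cKO was 6 to 8 under every alternative run. After Aβ it was 5 with no filter on low values and 2 to 8 without 1 library. In the AD model it was 1 with the 4 libraries alone and 1 to 4 without 1 library. Between AD and Aβ it was 0 with a pseudocount of 0.1 or 0.5 and with voom on recovered reads, and 0 to 2 without 1 library. Between AD and the Ogt cKO it was 3 to 7 without 1 library. Calls over all genes were 278 for AD with its 4 libraries alone, against 2392, and without 1 library 1857 to 6801 for the Ogt cKO, against 5934, and 2674 to 5856 for Aβ, against 5025. Why these counts moved was not tested.

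Signs changed for values that had not passed. They were 0.058 for S100a16 after Aβ and -0.17 for S100a1 between AD and Aβ with quantile normalization. For S100a8 the difference between AD and the Ogt cKO was 0.48 with a pseudocount of 0.1, 0.021 with rescaling to the total of reads and 1.06 with voom. Between Aβ and the Ogt cKO it was -1.22 and -0.29 with pseudocounts of 0.1 and 0.5, -0.0066 with quantile normalization and -1.56 with voom. Between AD and Aβ it was 1.70, 0.21 and 2.62 with those pseudocounts and voom. Without 1 library the ranges were -1.77 to 0.057 for S100a6, -0.89 to 0.19 for S100a10 and -0.42 to 0.077 for S100b in AD. For S100a8 they were -0.52 to 0.18 between AD and the Ogt cKO, -0.26 to 0.43 between Aβ and the Ogt cKO and -0.58 to 0.071 between AD and Aβ. Between AD and Aβ they were also -0.25 to 0.34 for S100a1, -0.090 to 0.57 for S100a11 and -0.44 to 0.21 for S100a13.

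The labels do not say what a shared replicate number marks. The correlation of replicate differences between the groups of a comparison was 0.03 for the cKO, 0.55 for AD and -0.17 for Aβ. With the number as a replicate block, 7, 3 and 8 members were called in the Ogt cKO, AD and Aβ comparisons. With a replicate block within each experiment, chosen after seeing the data, they were 7, 6 and 8, and 3 members differed between AD and Aβ. In AD it added S100a6 (limma adjusted p = 0.0092), S100a11 (0.020) and S100a16 (0.0053), all lower in the AD model. A crossed pairing left 7 members for Aβ. Rescaling to the total of reads shifted the median log2 change of all genes in the Ogt cKO to -0.19 and put 35.5% of its calls on the higher side, against 53.3%, and quantile normalization put 47.4% there for Aβ, against 58.0%. The 7 members called in the Ogt cKO were called under both scalings. Depth limits S100a8, S100a4 and S100a9, with few or no reads in the control libraries.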

Other observations

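The other S100 genes of the table, S100a7a apart, stayed below the filter. S100a3 was at 0.404 and 0.374 FPKM in the Ogt cKO and 0.0188 and 0.0514 in its control, at 0.0600 and 0.0485 in the AD model and 0.107 and 0.0270 in its control, and at 0.0626 and 0.247 in the Aβ-treated group and 0.376 and 0.325 in its control. S100a5, which lies between S100a4 and S100a6, had at most 10 reads in a library, all of them in the Ogt cKO, the Aβ control and AD control replicate 1. S100a2, S100a14, S100g and S100z had at most 4 reads in any library. Of the S100-fused epidermal genes, which carry an S100 domain, only Tchh (trichohyalin) was tested, and it averaged 1.38 FPKM in the Ogt cKO and 3.09 in its control (log2 change -0.78 ± 0.26, limma adjusted p = 0.040).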
